A study of Rattus norvegicus with 54 samples.

Results

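Infarct zone tissue of rat hearts that had received a bi-level cell sheet was compared with infarct zone tissue of untreated infarcted hearts, which are the 12 libraries labelled MI + Cell Sheet or MI and taken from the infarct, of 54 libraries in all. The 6 cell sheet libraries and the 6 untreated MI libraries came from female athymic rats of the strain F344/NJcl-rnu/rnu, which lack T cells and accept human grafts, 8 weeks old. All 12 hearts had a myocardial infarction (MI) from ligation of the left anterior descending artery. The sheet joined a layer of human endothelial progenitor cells, grown out of blood, to a layer of human smooth muscle cells, derived from mesenchymal stem cells, and was laid over the infarcted wall, while the untreated MI hearts received none. Tissue was taken 1 week later. The same position of 6 sham-operated hearts, which had neither infarct nor sheet, served as the background. The study describes 6 separate hearts in each group, but the labels number the libraries within a group as technical replicates, and if that is right the p-values measure only the spread between preparations. Reads were counted on rat genes, transcripts of the human sheet were not analysed here, and whether reads of the human cells were counted on conserved rat genes was not tested.

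An infarct heals through overlapping stages in which dead myocardium is cleared by leukocytes, fibroblasts turn into matrix-secreting myofibroblasts, and vessels grow into the wound and are wrapped by smooth muscle cells and pericytes. Fibrillar collagens give the young scar its tensile strength, collagen VI and collagen XII link fibrils to cells and to each other, and matricellular proteins such as tenascin C and periostin steer cells through the wound without bearing load. Notch3 is a receptor of mural cells, the smooth muscle cells and pericytes around a vessel, and is activated by ligands on the endothelium. Surviving cardiomyocytes bring their own transcripts into the tissue, above all those of the sarcomere and of the mitochondria, so the makeup of a tissue piece sets the level of many genes. In bulk tissue, fewer cells of a type and less RNA per cell cannot be told apart.

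Matrix genes, a few mural cell genes and developmental regulators stood higher in the cell sheet-treated infarct zone. Mitochondrial genes stood lower together with cardiomyocyte markers, and their median was near 0 once the cardiomyocyte level was a covariate. The same covariate lowered the medians of fibrillar collagens from 0.67 to 0.33 and of matricellular proteins from 0.34 to 0.08. Smooth muscle genes went from 0.31 to 0.08 and developmental regulators from 0.24 to 0.19. Pericyte markers and other collagens went up, from 0.26 to 0.37 and from 0.10 to 0.16. The covariate was measured in the same libraries, after treatment, and its median was 8.22 with the cell sheet and 10.2 in untreated MI. Adjusting for it can therefore also remove an effect of the sheet. Whether cardiomyocyte content underlies any of these differences was not tested. No single gene passed the adjusted test against the spread between hearts. With edgeR's quasi-likelihood test, 0 of 16196 genes (0%) had an adjusted p under 0.05, and the lowest adjusted p was 0.472. Before adjustment, 1341 genes (8.28%) had a p under 0.05, of which 797 (4.92%) were higher and 544 (3.36%) were lower with the cell sheet. The 6 cell sheet and 6 untreated MI libraries did not overlap for 119 genes (0.735%), 77 higher (0.475%) and 42 lower (0.259%). The median log2 fold change over all genes tested was −0.01, and 48.7% of the genes were above 0. The number of calls depended on the test. DESeq2 on the same libraries gave 85 genes with an adjusted p under 0.05, 58 higher and 27 lower, and DESeq2 on all 54 libraries gave 61. edgeR with all 54 libraries in 1 fit gave 6, and limma voom with sample quality weights gave 0, with 3069 genes at an unadjusted p under 0.05. Since no gene passed the main test, the sections that follow give levels and differences, and a standard error (SE) comes from the same edgeR fit, as does each adjusted p unless another tool is named. Levels are CPM, the share of a library's gene counts on a fixed scale, with edgeR's TMM scaling, and every fold change is cell sheet over untreated MI.

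The libraries within each group differed widely. This was not particular to the infarct zone, since the median standard error over all genes was 0.20 here and 0.19 in the border zone. The libraries held 16542441 to 23397754 counts on genes with the cell sheet, 18821474 to 22459805 in untreated MI and 12699204 to 17233325 in sham. The mean log2 CPM of 16 cardiomyocyte genes was 6.54 to 11.7 over the cell sheet libraries (median 8.22), 8.30 to 11.7 over the untreated MI libraries (median 10.2) and 10.98 to 12.6 over the sham libraries (median 12.4). Sham replicate 5 alone set the low end of the sham range, at 10.98 beside 12.2 to 12.6 in the other sham libraries, and it also stood apart in its mean log2 CPM of macrophage (7.68), T and natural killer cell (5.43) and MHC class II genes (9.33). MI replicate 1 and cell sheet replicate 6, both at 11.7, lay between it and the other sham libraries, and each had the lowest Col1a1 level of its group. Cell sheet replicates 2 and 6 also carried skeletal muscle transcripts. The share of counts outside annotated genes was 12.97% ± 3.84 with the cell sheet, 17.8% ± 5.4 in untreated MI and 28.2% ± 3.94 in sham (SD, n = 6 each). An exact permutation test between the 2 infarcted groups, 2-sided, gave p = 0.106 (adjusted p = 0.212 over 4 library measures).

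Col1a1, which encodes a chain of collagen I, the main fibrillar collagen of scar, ran from 8200 to 22680 CPM in the cell sheet group (median 16490) and from 3001 to 12050 CPM in the untreated MI group (median 9442), against 526 to 788 CPM in sham. Cell sheet replicates 1 to 4 were above every untreated MI library, while replicates 5 and 6 lay within the untreated range. This is a log2 fold change of 0.78 (SE 0.36, adjusted p = 0.604). Both infarcted groups stood far above sham, so the difference between them was small beside that between infarcted and sham-operated hearts.

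The 3 main chains of collagen VI, a microfibrillar collagen that anchors cells in the interstitium, gave a tighter picture. Col6a3 was at 742 to 1622 CPM with the cell sheet (median 1039) and at 179 to 782 CPM without it (median 557). The groups overlapped only through untreated MI replicate 4, the highest of its group at 782 CPM, which was above cell sheet replicates 5 and 6. Its log2 fold change was 1.00 (SE 0.30, adjusted p = 0.473). Col6a1 had a log2 fold change of 0.82 (SE 0.27, adjusted p = 0.497), with 1136 to 2701 CPM in the cell sheet group and 593 to 1449 CPM in the untreated group. Col6a2, whose gene lies beside Col6a1 and assembles with it, had 0.73 (SE 0.26, adjusted p = 0.51). Cell sheet replicates 5 and 6 were the lowest of their group for all 3 chains, and cell sheet replicate 2 was the highest.

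Col12a1, which encodes a collagen on the surface of fibrils in tissue under load, was nearly silent in sham hearts, at 6.40 to 9.02 CPM. It was at 293 to 1195 CPM in the cell sheet group (median 846) and at 71.2 to 428 CPM in the untreated MI group (median 318). Cell sheet replicates 1 to 4 exceeded every untreated library and replicates 5 and 6 did not. Col12a1 had a log2 fold change of 1.35 (SE 0.43, adjusted p = 0.476). Over the 12 fits that each left out 1 library, the log2 fold changes ranged from 0.61 to 0.90 for Col1a1, from 0.83 to 1.14 for Col6a3 and from 1.16 to 1.52 for Col12a1, with the lowest value of each found without MI replicate 1.

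The cardiomyocyte genes moved opposite to these collagens. Their levels were lower in cell sheet replicates 1 to 4 (6.54 to 8.59 on the score above) than in replicates 5 and 6. With that score as a covariate, the log2 fold changes were 0.35 for Col1a1, 0.48 for Col6a1, 0.42 for Col6a2, 0.72 for Col6a3 and 0.83 for Col12a1. All stayed above 0, and Col1a1 had the smallest. These 5 genes, as well as Ndnf, Adam12, Notch3 and Cxcl12, were singled out by the study on these samples, so their direction here is not independent evidence.

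**Figure D1:**
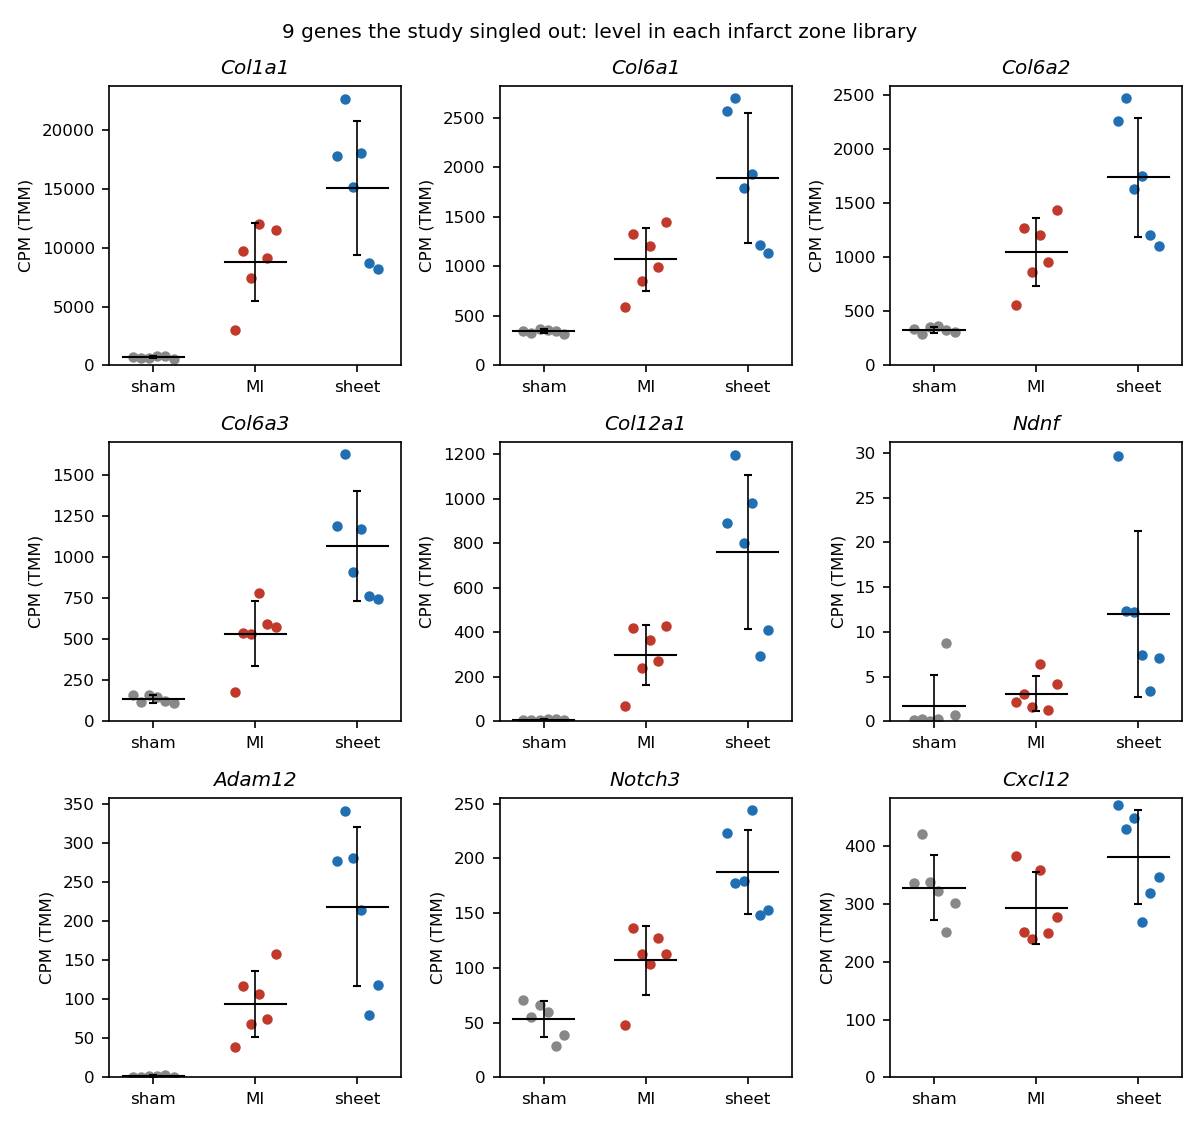
Level in CPM (TMM scaled, linear axis from 0) of the 9 genes that the study singled out, in each infarct position library of the sham, untreated MI and cell sheet groups. Each point is a library, the horizontal line is the group mean and the bar the SD over 6 libraries. Notch3 is the gene of the 9 whose cell sheet and untreated MI points do not overlap, with 149 CPM as the lowest cell sheet value and 137 CPM as the highest untreated value.

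Ndnf, a secreted factor that promotes endothelial survival, had the largest fold change of the 9. Its level was 29.7, 12.4, 12.2, 7.37, 3.38 and 7.11 CPM in cell sheet replicates 1 to 6 and 2.16, 3.04, 1.57, 6.41, 1.32 and 4.13 CPM in untreated MI replicates 1 to 6. Cell sheet replicate 1 was more than 2 times as high as any other library, and cell sheet replicate 5 lay below untreated replicates 4 and 6. Its log2 fold change was 1.95 (SE 0.52, adjusted p = 0.472), and it was 1.45 without cell sheet replicate 1. Ndnf was among the 85 genes that DESeq2 called on these 12 libraries. In sham hearts its median was 0.24 CPM, with 1 library at 8.77 CPM.

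Adam12, a membrane metalloprotease of activated mesenchymal cells, was at 79.7 to 341 CPM with the cell sheet (median 246) and at 38.3 to 158 CPM in untreated hearts (median 90.4), and at 0.43 to 3.40 CPM in sham. Cell sheet replicates 1 to 4 were above every untreated library. Its log2 fold change was 1.22 (SE 0.39, adjusted p = 0.48), and 0.68 with the cardiomyocyte score as a covariate. Cxcl12, the chemokine that draws CXCR4-bearing progenitors, differed least, with 268 to 471 CPM in the cell sheet group (median 388) and 239 to 382 CPM in the untreated MI group (median 264). Those ranges overlapped over most of their width and also covered the sham range of 251 to 421 CPM. Between them the log2 fold change was 0.38 (SE 0.17, adjusted p = 0.599), and 0.31 to 0.48 when 1 library was left out.

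Of 41 angiogenic ligands and receptors tested, a list that holds Ndnf, Adam12 and Cxcl12, 7 were higher and 0 lower at an unadjusted p under 0.05, beside 4.92% higher and 3.36% lower over all genes. The 3 genes named were singled out on these samples. The median log2 fold change was −0.03 beside −0.01 over all genes, and 0.12 with the cardiomyocyte score as a covariate. The other 4 were Angpt2 at 0.58 (SE 0.24), a ligand that loosens mural cells from vessels, Pgf at 0.57 (SE 0.25), a ligand of the VEGF family, Angpt4 at 1.34 (SE 0.50), at 0.81 to 4.95 against 0.29 to 1.28 CPM, and Pdgfra at 0.25 (SE 0.11), a receptor of fibroblasts. Vegfa, the main ligand of vessel sprouting, had a log2 fold change of −0.31 (SE 0.41) and Kdr, its receptor on endothelium, −0.18 (SE 0.31), neither with an unadjusted p under 0.05, and both values were above 0, at 0.18 and 0.24, with the cardiomyocyte score as a covariate. Among 13 endothelial markers tested, 12 had a log2 fold change below 0, with a median of −0.18 that was 0.05 with the same covariate, and Erg, an endothelial transcription factor, was lower at −0.34 (SE 0.15).

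Notch3 was the gene of the 9 whose groups were fully separated. Its level was 223, 177, 179, 244, 149 and 153 CPM in cell sheet replicates 1 to 6 and 47.4, 137, 113, 103, 127 and 113 CPM in untreated MI replicates 1 to 6. Sham hearts had 28.8 to 70.9 CPM, a range that held untreated replicate 1 and no other infarcted heart. A log2 fold change of 0.81 (SE 0.22, adjusted p = 0.472) resulted, it ranged from 0.68 to 0.90 when 1 library was left out, and it was 0.66 with the cardiomyocyte score as a covariate.

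The rest of the Notch pathway did not move as 1 block. Of 23 members tested, 3 were higher (Notch2, Notch3 and Jag1) and 2 were lower (Heyl and Rfng) at an unadjusted p under 0.05, beside 4.92% and 3.36% of all genes, with a median log2 fold change of 0.04. Notch2, another receptor of the family, was at 75.8 to 163 CPM with the cell sheet and at 47.7 to 111 CPM without it (log2 fold change 0.52, SE 0.22), and Jag1, a ligand, had 0.26 (SE 0.12). Heyl, a transcriptional repressor induced by Notch signalling in mural cells, went the other way, at 33.8 to 62.7 CPM with the cell sheet (median 45.1) and 54.7 to 85.0 CPM in untreated hearts (median 62.3). Cell sheet replicate 4 was the single library of its group above the lowest untreated value. For Heyl the log2 fold change was −0.54 (SE 0.15, adjusted p = 0.472). Other targets and the endothelial ligand Dll4 had no unadjusted p under 0.05, with −0.28 for Hes1 (SE 0.19), −0.29 for Hey1 (SE 0.27) and −0.45 for Dll4 (SE 0.29). The value of Hey1 was 0.06 with the cardiomyocyte score as a covariate. DESeq2 on these 12 libraries called neither Notch3 nor any of the 5 collagen genes.

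The promoters of Notch3, Heyl and Hes1 are shown because the receptor and these targets lay on opposite sides of 0. They are the 250 bases before each transcription start in RefSeq on the assembly GRCr8, which is not the assembly of the counts. They lie at chr7:11834586-11834835 on the minus strand for Notch3, at chr5:140793021-140793270 on the plus strand for Heyl and at chr11:84213046-84213295 on the minus strand for Hes1. Capitals mark TGGGAA, the core of the site of RBPJ, the DNA-binding partner of activated Notch, which was searched on both strands.

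Notch3: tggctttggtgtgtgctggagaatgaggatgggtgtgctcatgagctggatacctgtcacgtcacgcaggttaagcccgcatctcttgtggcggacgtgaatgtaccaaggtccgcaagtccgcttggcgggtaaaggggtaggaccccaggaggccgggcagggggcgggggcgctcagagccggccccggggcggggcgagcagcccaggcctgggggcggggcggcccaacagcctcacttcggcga

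Heyl: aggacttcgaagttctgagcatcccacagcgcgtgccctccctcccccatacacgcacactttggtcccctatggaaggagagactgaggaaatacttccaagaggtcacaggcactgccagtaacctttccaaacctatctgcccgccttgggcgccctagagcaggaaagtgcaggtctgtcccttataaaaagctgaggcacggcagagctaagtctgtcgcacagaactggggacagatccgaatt

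Hes1: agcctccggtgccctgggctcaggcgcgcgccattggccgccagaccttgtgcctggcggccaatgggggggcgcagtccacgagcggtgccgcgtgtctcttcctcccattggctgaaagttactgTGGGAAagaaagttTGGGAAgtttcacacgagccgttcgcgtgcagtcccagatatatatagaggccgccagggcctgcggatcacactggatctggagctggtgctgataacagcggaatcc

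The Hes1 promoter held 2 copies, 123 and 109 bases before the start, and the windows of Notch3 and Heyl held none. Of 6 listed genes, 5 had a promoter in the table, and 2 of these held the motif, as did 22.1% of 33469 rat promoters of that length. A match of letters is a description of the window and not a site of binding.

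Contractile smooth muscle genes are the other arm of the mural cell programme. Of 12 members, 1 was higher at an unadjusted p under 0.05, beside 4.92% of all genes. The median log2 fold change was 0.31 (0.08 with the cardiomyocyte score as a covariate). Myh11, the smooth muscle myosin heavy chain, was at 118 to 227 CPM in the cell sheet group (median 159) and at 36.1 to 177 CPM in untreated hearts (median 87.3), and 5 of 6 untreated libraries lay below every cell sheet library. Myh11 had a log2 fold change of 0.83 (SE 0.30, adjusted p = 0.51). Acta2, smooth muscle actin, which myofibroblasts also make, had 0.34 (SE 0.45), at 211 to 901 CPM against 93.2 to 686 CPM, and its value was −0.22 with the cardiomyocyte score as a covariate. Of 8 pericyte markers, 2 were higher and 0 lower at an unadjusted p under 0.05, beside 4.92% and 3.36% of all genes. These were Notch3, which the study singled out on these samples, and Rgs5, at 0.49 (SE 0.22). Cspg4 had 0.31 (SE 0.14) and did not pass that p. The median of the 8 was 0.26 (0.37 with the covariate), and 2 members were below 0, the lowest at −0.43. The CArG box is the serum response element of contractile genes. Only its exact form, CC, 6 bases of A or T and GG, was searched, in windows as long as those of Notch3, Heyl and Hes1. That form was in none of the 8 smooth muscle list promoters available, Myh11 not among them, and in 1.5% of all promoters. The Acta2 window held ccctatatgg and ccttgtttgg, each 1 base away from the exact form. Looser forms were not counted, so the count does not show that these promoters lack a CArG element.

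The genes whose 2 groups of 6 did not overlap, at a mean log2 CPM of at least 1, are the cleanest separations in this zone, though the selection itself fixed that separation. The largest log2 fold change among them was that of Lrrc15, a membrane protein of myofibroblasts, with 23.6, 132, 24.9, 24.7, 12.1 and 33.4 CPM in cell sheet replicates 1 to 6 and 2.74, 9.84, 6.98, 11.4, 4.95 and 9.64 CPM in untreated MI replicates 1 to 6. All infarcted hearts were above sham, where the highest library had 0.30 CPM. Lrrc15 had a log2 fold change of 2.46 (SE 0.57, adjusted p = 0.472), and 1.64 without cell sheet replicate 2, the highest library. Igsf10, an immunoglobulin superfamily protein of mesenchymal cells, showed less spread, with 166 to 222 CPM in the cell sheet group, 68.1 to 154 CPM in the untreated MI group and 21.5 to 64.0 CPM in sham. Its log2 fold change was 0.85 (SE 0.16, adjusted p = 0.472), and 0.84 with the cardiomyocyte score as a covariate. Mmp2, a gelatinase that trims collagen, was at 873 to 1523 CPM against 488 to 797 CPM (log2 fold change 0.68, SE 0.17, adjusted p = 0.472).

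Kcp, a secreted modulator of BMP signalling, was at 3.96 to 7.92 CPM with the cell sheet and 1.84 to 3.35 CPM without it (log2 fold change 1.14, SE 0.23), and the untreated hearts were close to the sham range of 1.54 to 3.67 CPM. Tnfaip6, a hyaluronan-binding protein induced by inflammation, was at 26.2 to 80.5 CPM against 15.5 to 24.1 CPM (log2 fold change 1.08, SE 0.25). Of 74 higher and 33 lower genes that met this selection, the 10 with the largest differences each way are named. The rest of the 10 higher ones, besides Notch3, were Pmfbp1 (2.03), Pde1b (0.95), a calcium-dependent phosphodiesterase, Cyp7b1 (0.74), an oxysterol hydroxylase, and Plekhh2 (0.64). Pde1b rested on 1 library, cell sheet replicate 1, at 8.14 CPM beside 2.22 to 2.87 CPM in the rest of its group, and its log2 fold change was 0.51 without it.

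Among the genes lower with the cell sheet, Plxnb3, a semaphorin receptor, had the largest difference. It was at 0.60 to 2.32 CPM with the cell sheet and 2.44 to 11.7 CPM without it, so 1 cell sheet library lay just under the lowest untreated one (log2 fold change −1.91, SE 0.41, adjusted p = 0.472). Aatk, a kinase of the nervous system, had −0.998, at 3.33 to 5.22 against 6.31 to 13.01 CPM, and Gpr182, a decoy receptor for chemokines on endothelium, −0.72, at 8.10 to 12.1 against 12.3 to 23.3 CPM. Dhrsx, a dehydrogenase, was at 55.7 to 61.0 CPM in all 6 cell sheet libraries and 63.9 to 89.6 CPM in the untreated ones (log2 fold change −0.41, SE 0.08, adjusted p = 0.472), and S100a13, a calcium-binding protein, was at 15.6 to 22.1 against 23.97 to 27.1 CPM (−0.44, SE 0.09). Prr16, Hpf1, Ankrd39, Borcs5 and Arl6ip4 had −0.60, −0.52, −0.51, −0.49 and −0.41, where the lowest cell sheet library stood apart for Prr16 (replicate 4, 2.66 CPM) and for Arl6ip4 (replicate 1, 21.8 CPM). DESeq2 on the same 12 libraries gave an adjusted p under 0.05 to Lrrc15, Pmfbp1, Kcp, Tnfaip6, Igsf10, Mmp2 and Plekhh2 among the higher genes and to Plxnb3, Aatk, Gpr182, Prr16, Hpf1, S100a13 and Dhrsx among the lower ones. Clk1, a kinase that regulates splicing, also separated the groups, at 220 to 259 CPM against 125 to 214 CPM (log2 fold change 0.51). Like Lig3 (0.31) and Mia3 (0.35), it passed the adjusted threshold when edgeR was fitted to all 54 libraries. The other genes past it in that fit, Atp2a1, Myh2 and Mylpf, belong to the skeletal muscle list. The score of that list was high in cell sheet replicates 2 (4.19) and 6 (5.60).

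**Figure D2:**
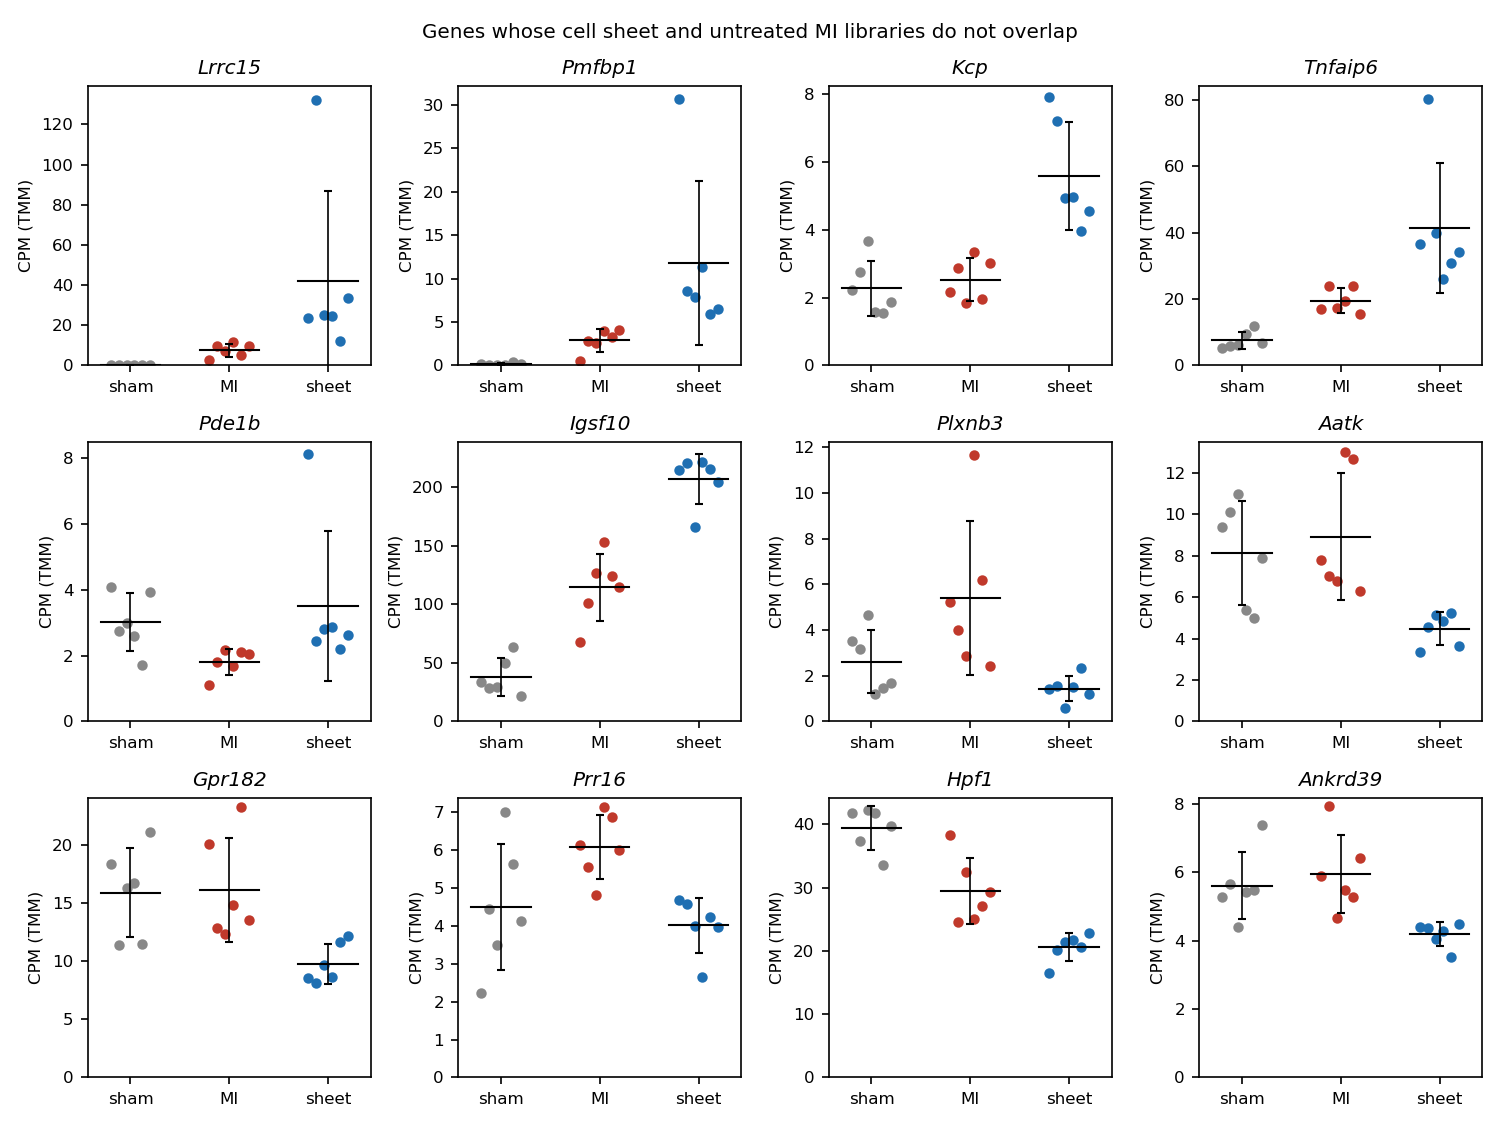
Level in CPM (TMM scaled, linear axis from 0) of the 6 genes with the largest higher and the 6 with the largest lower differences among those whose 6 cell sheet and 6 untreated MI infarct zone libraries do not overlap. Points are libraries, lines are means and bars the SD over 6 libraries. The separation was part of the selection. Lrrc15 is under 0.30 CPM in all sham libraries, while Aatk and Gpr182 in untreated hearts lie near the sham level.

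The wider matrix lists had medians above 0. Of 10 fibrillar collagen genes tested, 6 were higher and 0 lower at an unadjusted p under 0.05, and the median log2 fold change was 0.67 (0.33 with the cardiomyocyte score as a covariate). They included Col5a1 at 0.71 (SE 0.28), a chain that nucleates collagen I fibrils, and Col5a3 at 0.73 (SE 0.26). Of 6 collagen VI genes, 4 were higher with a median of 0.77 (0.48 with the covariate). The fourth was Col6a5, at 1.53 to 11.3 CPM against 0.27 to 2.34 CPM, with a log2 fold change of 2.23 (SE 0.66). The others, Col6a1, Col6a2 and Col6a3, were singled out by the study on these samples, so this count and median are not independent evidence. The 24 other collagens had a median of 0.10, with 3 higher and 1 lower, Col20a1, at −0.87 (SE 0.34). Col12a1 is among those 3 and was also singled out by the study.

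Of 19 matricellular proteins, 6 were higher and 0 lower, with a median of 0.34 that was 0.08 with the cardiomyocyte score as a covariate. Tnc, tenascin C, which appears in the wound and at the edge of living muscle, was at 366, 1298, 781, 630, 299 and 479 CPM in cell sheet replicates 1 to 6 and 126, 223, 181, 231, 175 and 454 CPM in untreated MI replicates 1 to 6. Untreated replicate 6 alone exceeded any cell sheet library. Tnc had a log2 fold change of 1.47 (SE 0.39, adjusted p = 0.472). Postn, periostin, which marks activated fibroblasts, was at 2339 to 6262 CPM (median 3513) against 852 to 2693 CPM (median 2146), with 0.92 (SE 0.29, adjusted p = 0.481). Their sham medians were 3.72 CPM for Tnc and 32.3 CPM for Postn.

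Of 13 proteoglycans, 5 were higher with a median of 0.32 (0.19 with the covariate), among them Vcan, the large proteoglycan of provisional matrix, at 0.51 (SE 0.17), and Lum, which spaces collagen fibrils, at 0.55 (SE 0.21). Among enzymes that build and cut collagen, 3 of 23 collagen processing genes were higher (median 0.21, and −0.03 with the cardiomyocyte score as a covariate), including Adamts14 at 0.84 and Adamts3 at 0.92, which trim procollagen, and 4 of 19 metalloproteases and their inhibitors were higher (median 0.10, and 0.05 with the covariate), including Mmp14 at 0.71, the membrane enzyme that activates Mmp2, and Mmp9 at 2.52, where cell sheet replicate 2 held 55.7 CPM and the remainder of the group 1.53 to 17.7 CPM. Of 26 integrins, the receptors for this matrix, 2 were higher and 1 was lower (Itga9, −0.52), with a median of 0.20 and 0.02 with the covariate. Those counts compare with 4.92% of all genes tested higher and 3.36% lower.

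**Figure D3:**
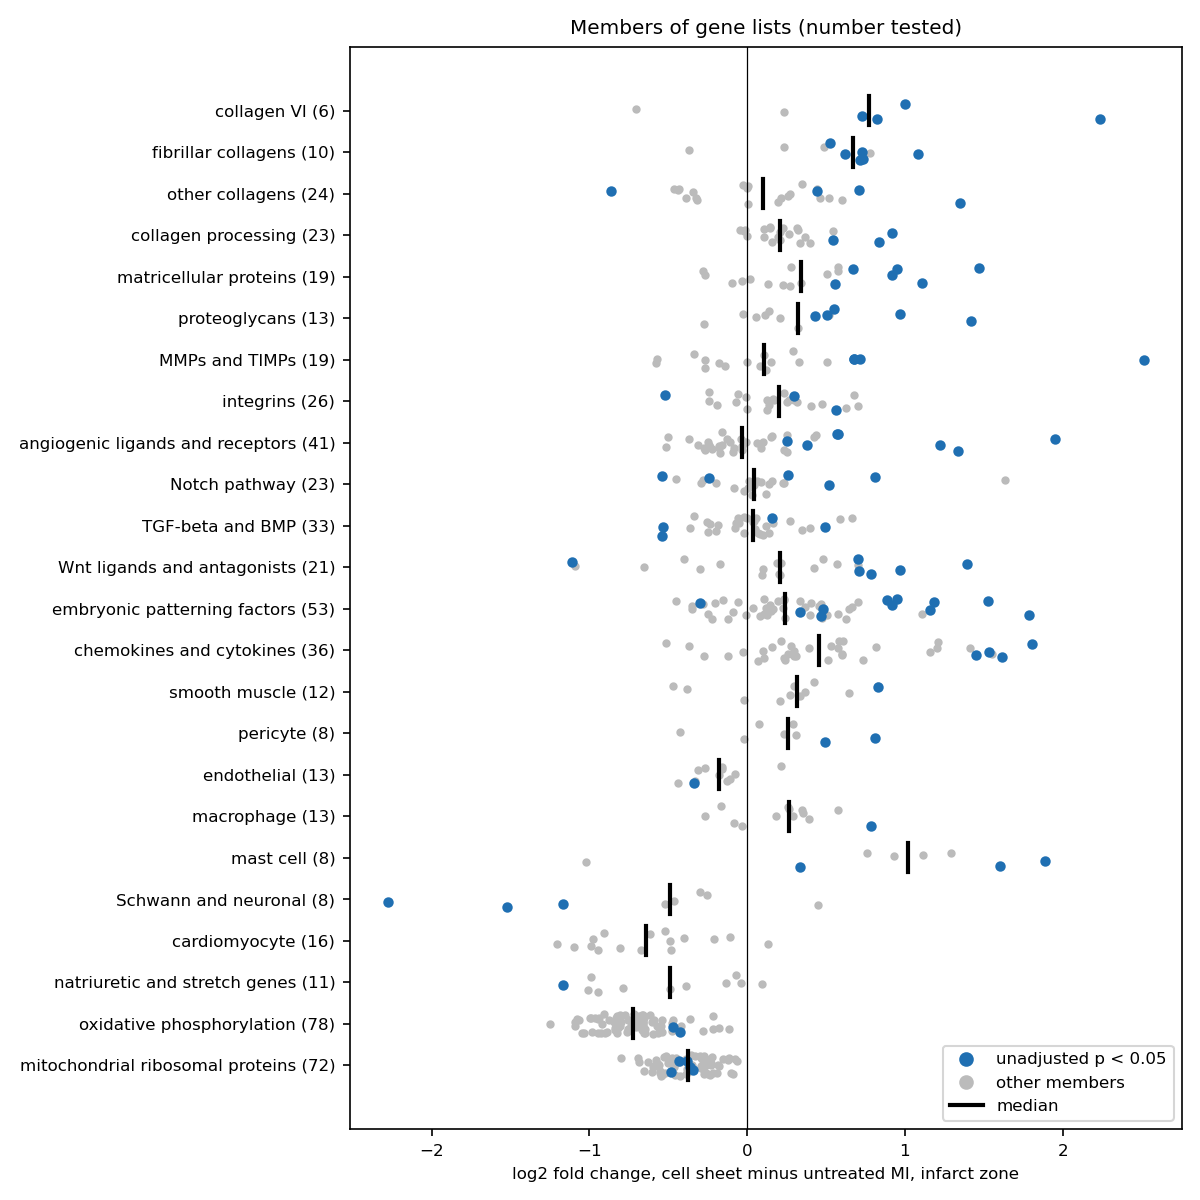
Each point is the log2 fold change (cell sheet minus untreated MI, infarct zone) of a gene in the list named on the left, with the number of genes tested in brackets, blue where the unadjusted p was under 0.05, and the bar is the list's median. Collagen VI has the highest median of the matrix lists, at 0.77, and all 78 oxidative phosphorylation genes lie below 0 with 2 of them blue. The collagen VI list holds Col6a1, Col6a2 and Col6a3, which the study singled out on these samples.

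Marker lists of the cells that make matrix did not all follow. Of 10 fibroblast markers, 3 were higher and 2 lower at an unadjusted p under 0.05, beside 4.92% and 3.36% of all genes. Their median was 0.03. Tcf21, a transcription factor of resting cardiac fibroblasts, was at 19.7 to 50.02 CPM with the cell sheet (median 30.2) and 34.9 to 52.4 CPM without it (median 45.2), with a log2 fold change of −0.52 (SE 0.19). Of 10 myofibroblast markers, which include Lrrc15 and Postn, 2 were higher with a median of 0.28, which was −0.08 with the cardiomyocyte score as a covariate. Proliferation genes were level, with 0 of 16 past an unadjusted p of 0.05 and a median of −0.00.

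Developmental regulators, the group nearest to the morphogenesis pathways that the study names, had 10 of 53 members higher and 1 lower at an unadjusted p under 0.05, beside 4.92% and 3.36% of all genes, with a median log2 fold change of 0.24 (0.19 with the cardiomyocyte score as a covariate). Tbx2, a T-box repressor of the embryonic heart, was at 17.5 to 28.0 CPM against 13.4 to 20.2 CPM (log2 fold change 0.48, SE 0.14). Hoxb5 had 1.19 (SE 0.37), at 0.69 to 2.43 against 0.23 to 0.98 CPM, and Six4 had 0.92 (SE 0.30). At these low levels the counting error adds to the spread between libraries.

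Of 21 Wnt ligands and antagonists, 5 were higher and 1 lower, beside 4.92% and 3.36% of all genes, with a median of 0.21 (0.19 with the cardiomyocyte score as a covariate). Sfrp2, a secreted Wnt antagonist of fibroblasts, was at 186 to 461 CPM with the cell sheet (median 269) and 107.9 to 218 CPM without it (median 137), with 0.97 (SE 0.24, adjusted p = 0.472). Sfrp4, a relative of Sfrp2, had 1.39 (SE 0.43) and was at 47.9 to 167 against 12.4 to 66.8 CPM. In sham the highest levels were 30.6 CPM for Sfrp2 and 1.61 CPM for Sfrp4. Wnt5a, a non-canonical ligand, had 0.70 (SE 0.22). Of 33 TGF-beta and BMP genes, 2 were higher and 2 lower with a median of 0.04 (−0.07 with the covariate), and the lower ones were the ligands Bmp4 (−0.54) and Bmp6 (−0.53), with the receptor Bmpr1a at 0.49.

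Mitochondrial genes leaned the other way. All 78 oxidative phosphorylation genes tested had a log2 fold change below 0, with a median of −0.72, yet 2 of them, beside 3.36% of all genes tested, passed an unadjusted p of 0.05, Cox6a1 at −0.47 (SE 0.17) and Cox8a at −0.43 (SE 0.16), both subunits of cytochrome c oxidase. Cox6a1 was at 166 to 301 CPM with the cell sheet (median 188) and 236 to 367 CPM without it (median 279), below the sham range of 355 to 538 CPM in all but 1 infarcted heart, MI replicate 1. All 72 mitochondrial ribosomal protein genes were also below 0 (median −0.37), and 5 passed, among them Mrps11 at −0.48 (SE 0.15). Cytosolic ribosomal proteins had a median of −0.06, with 1 of 75 lower (Rpl37, −0.51), and reads of these genes could have been shared with near-identical copies.

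The cardiomyocyte list itself had 15 of 16 members below 0, a median of −0.64 and none past an unadjusted p of 0.05. The SD of its score was 2.03 over the cell sheet libraries and 1.34 over the untreated ones. Myl2, the ventricular light chain, ranged from 153 to 5350 CPM in the cell sheet group and from 661 to 8171 CPM in the untreated MI group (log2 fold change −0.98, SE 0.86, adjusted p = 0.78). With the cardiomyocyte score as a covariate, the median of the oxidative phosphorylation list was −0.07 and that of the mitochondrial ribosomal list −0.04. Single libraries also set these medians. The oxidative phosphorylation median was −0.26 without MI replicate 1 and −1.24 without cell sheet replicate 6, and the cardiomyocyte median was −0.25 and −1.70 in the same fits.

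Load-responsive genes gave a similar picture. Ankrd1, a stretch-induced nuclear cofactor of muscle, was at 195 to 2045 CPM with the cell sheet (median 1031) and 1225 to 3379 CPM without it (median 2673), with a log2 fold change of −1.17 (SE 0.49, adjusted p = 0.561). Its lowest level was in cell sheet replicate 2, which also had the lowest cardiomyocyte score. Ankrd1 was the single member of 11 in its list past an unadjusted p of 0.05, beside 3.36% of all genes lower. The natriuretic peptides Nppa and Nppb, which the failing ventricle secretes, had −1.01 (SE 0.65, adjusted p = 0.715) and −0.99 (SE 0.55, adjusted p = 0.681). Fatty acid oxidation genes had a median of −0.33, calcium handling and ion channel genes −0.20, and hypoxia and glycolysis genes −0.16, with no member of these lists past an unadjusted p of 0.05. With the cardiomyocyte score as a covariate, the medians were 0.24 for fatty acid oxidation, 0.27 for calcium handling and ion channels, −0.06 for hypoxia and glycolysis and 0.13 for the natriuretic and stretch list, so 3 of these 4 directions turned. The score includes Ryr2, Atp2a2 and Pln of the calcium handling list and Csrp3 of the natriuretic and stretch list. The turn of those lists was therefore partly fixed by shared members. The fatty acid oxidation median also ran from −1.18 without cell sheet replicate 6 to 0.12 without MI replicate 1.

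**Figure D4:**
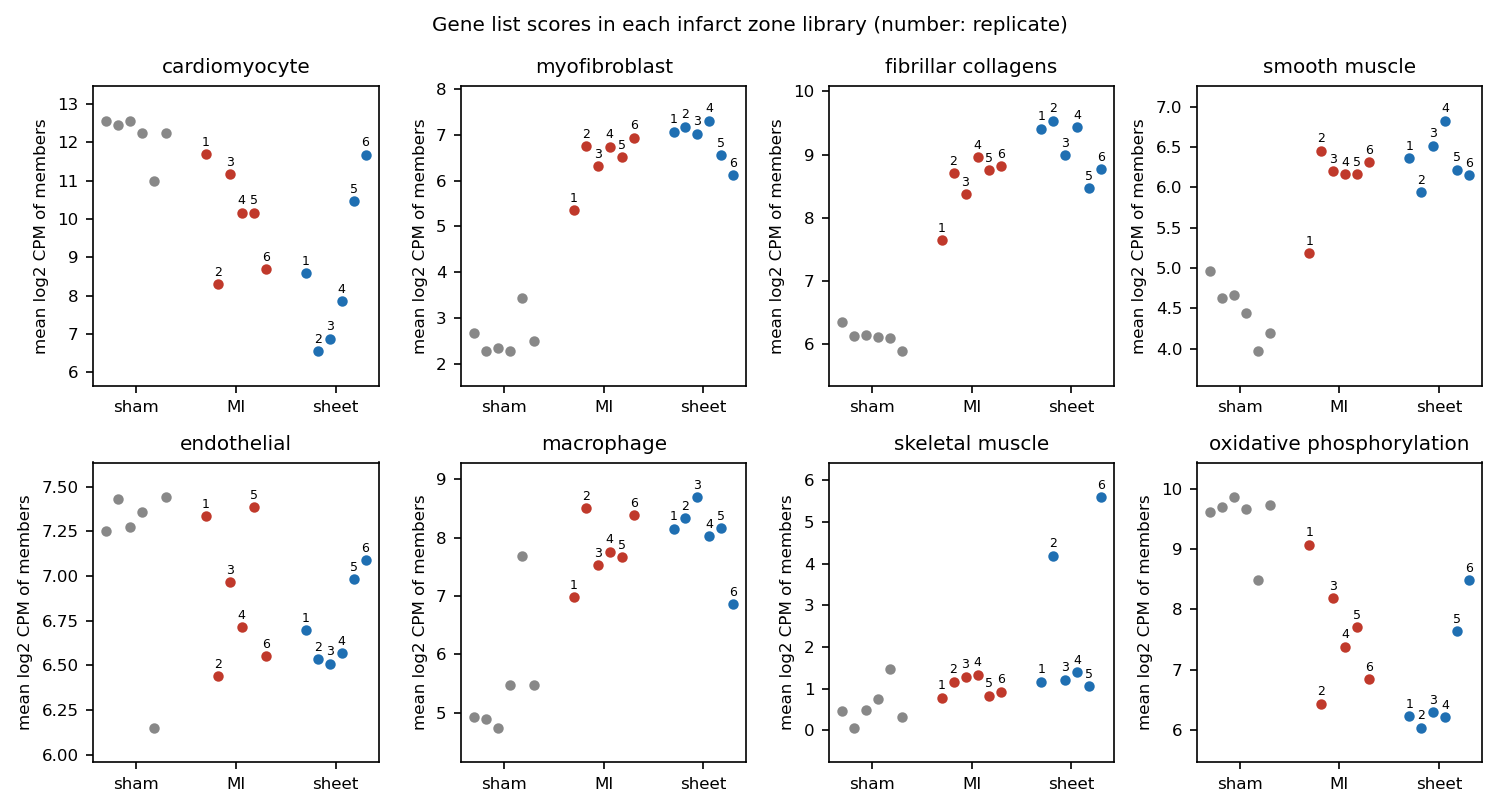
Mean log2 CPM of the members of 8 gene lists in each infarct position library of the sham, untreated MI and cell sheet groups, with replicate numbers beside the points of the infarcted hearts. The axes do not start at 0. Cardiomyocyte scores range from 6.54 to 11.7 among cell sheet libraries, and skeletal muscle scores are 4.19 and 5.60 in cell sheet replicates 2 and 6 and at most 1.39 in the other cell sheet libraries.

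Inflammatory genes were higher on the median and were led by 1 library. Of 36 chemokines and cytokines, 4 were higher and 0 lower at an unadjusted p under 0.05, beside 4.92% and 3.36% of all genes. The median log2 fold change was 0.45, with 0.17 without cell sheet replicate 2 and 0.06 with the cardiomyocyte score as a covariate. Il1b, the leading cytokine of early infarct inflammation, was at 97.9 CPM in that library, at 4.68 to 26.1 CPM in the other cell sheet libraries and at 6.46 to 14.0 CPM in untreated hearts (log2 fold change 1.45, SE 0.62). Cxcl6, a chemokine for neutrophils, was at 106 CPM there, at 3.64 to 19.9 CPM in the others and at 2.06 to 14.1 CPM in untreated hearts (1.81, SE 0.77). Adgre1, which encodes the macrophage marker F4/80, had 0.79 (SE 0.35), at 63.7 to 294 against 70.0 to 154 CPM, and was 1 of 13 macrophage markers past an unadjusted p of 0.05 (median 0.26). The medians of complement, MHC class II and interferon-stimulated genes were 0.24, 0.19 and 0.08, and −0.02, −0.27 and 0.16 with the cardiomyocyte score as a covariate, with no member past that p.

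Immediate early genes, the first transcripts after a stimulus to a cell, were mixed, with a median of 0.05. Of 22, 2 were higher and 1 lower at an unadjusted p under 0.05, beside 4.92% and 3.36% of all genes. Fos, a subunit of the AP-1 transcription factor, was at 21.7 to 64.5 CPM with the cell sheet and 9.36 to 36.4 CPM without it, with a log2 fold change of 0.94 (SE 0.34). Maff, a small Maf transcription factor, was at 17.0 to 27.5 against 23.6 to 49.6 CPM, with −0.74 (SE 0.19). Leukocyte markers other than those of macrophages had medians of 0.55 for neutrophils, 0.34 for T and natural killer cells and 0.29 for B and plasma cells (0.20, −0.01 and −0.08 with the covariate), each with 1 member past an unadjusted p of 0.05. Adipocyte, lymphatic, mesothelial and erythroid markers had medians of 0.32, 0.09, −0.02 and −0.23 (−0.12, −0.11, −0.53 and −0.26 with the covariate) and no such member.

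Mast cell genes stood out among the rarer cell types, with 3 of 8 tested higher, beside 4.92% of all genes, and a median of 1.02 (0.56 with the cardiomyocyte score as a covariate). Cpa3, the carboxypeptidase of mast cell granules, was at 37.5, 14.8, 67.7, 20.6, 17.7 and 7.75 CPM in cell sheet replicates 1 to 6 and at 10.1, 3.17, 5.03, 21.1, 3.38 and 11.9 CPM in untreated MI replicates 1 to 6. Of the cell sheet libraries, 4 lay within the untreated range. Cpa3 had a log2 fold change of 1.60 (SE 0.58, adjusted p = 0.51), and Fcer1a, the IgE receptor chain, had 1.89 (SE 0.66). The list's median was 0.62 without cell sheet replicate 3. Schwann cell genes were lower, with a median of −0.49. Of 8, 3 were lower at an unadjusted p under 0.05, beside 3.36% of all genes. Sox10, the transcription factor that defines these cells, was at 2.11 to 6.23 CPM (median 2.79) against 3.63 to 12.5 CPM (median 7.49), with a log2 fold change of −1.17 (SE 0.34, adjusted p = 0.472), and Cdh19, a cadherin of Schwann cells, had −1.52 (SE 0.49).

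Genes of fast skeletal muscle, which the ventricle does not make at such levels, had the largest fold changes of any list. Over 7 genes tested the median was 3.59, and 5 were higher at an unadjusted p under 0.05, beside 4.92% of all genes. Mylpf, the fast myosin light chain, was at 89.7 and 127 CPM in cell sheet replicates 2 and 6, at 1.17 to 3.54 CPM in the other cell sheet libraries and at 1.23 to 3.44 CPM in untreated hearts. The log2 fold change of 4.24 (SE 1.19) rested on those 2 libraries. Without both of them the list's median was 0.04, and the number of genes with an unadjusted p under 0.05 over all genes was 1601, again with none past the adjusted threshold. Sftpc, a surfactant protein of lung epithelium, was at 33.9 CPM in cell sheet replicate 6 and at most 1.40 CPM in the 11 other infarcted hearts. Without cell sheet replicates 2 and 6 the medians of the fibrillar collagen and collagen VI lists were 0.60 and 0.76, close to those over all 12 libraries.

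The same hearts also gave border and remote zone libraries, which allow the infarct zone difference to be set beside those of its neighbours within animals. Fitted alone, the border zone had 2922 of 16272 genes with an adjusted p under 0.05, 1379 higher (8.47%) and 1543 lower (9.48%), and the remote zone had 2623 of 15374, 1579 higher (10.3%) and 1044 lower (6.79%). The median standard error was 0.20 for infarct, 0.19 for border and 0.18 for remote. The median size of the log2 fold change was 0.16, 0.29 and 0.29 in the same order. What set the number of calls in each zone was not tested. The test of the difference itself, with the animal as a block, called 0 of 17275 genes between infarct and border (lowest adjusted p 0.186, 2012 genes or 11.6% with an unadjusted p under 0.05) and 0 of 16902 genes between infarct and remote (lowest adjusted p 0.0999, 4190 genes or 24.8%). Both tests share the infarct zone libraries. Without a block, 80 genes passed for infarct against border and 0 for infarct against remote, and with limma voom and the animal as a random effect 147 and 322 genes passed. Without the heart of cell sheet replicate 1, 2011 genes passed for infarct against remote. Of these, 1360 had a higher and 651 a lower fold change in the infarct zone. Without the heart of untreated MI replicate 6 there were 3.

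Notch3 was higher with the cell sheet in all 3 zones, at 0.81 in the infarct, 1.53 in the border (adjusted p = 0.00187) and 0.97 in the remote zone (adjusted p = 0.00973), by edgeR's quasi-likelihood test. The infarct zone fold change was 0.77 below that of the border zone on the log2 scale (SE 0.21, adjusted p = 0.215). Myh11 had 0.83, 1.37 (adjusted p = 0.00443) and 2.20 (adjusted p = 0.000169) in the same order, and was 1.23 lower in the infarct than in the remote zone (SE 0.30, adjusted p = 0.0999). The 3 main collagen VI genes had another layout, with border zone values above those of the infarct zone and remote values near 0, while Col12a1 had 1.35, 0.83 and 0.65. Col6a1 had 0.82, 1.22 and −0.08, and its infarct minus remote difference was 1.16 (SE 0.33, adjusted p = 0.108). Adam12 had 1.22, 1.17 and −0.29, with an infarct minus remote difference of 3.50 (SE 1.09, adjusted p = 0.119). These differences come from a separate fit with the animal as a block and need not equal the subtraction of the single zone values. For Adam12 the difference was larger than that subtraction. So it was for Col1a1 (2.00, with 0.78 in the infarct and −0.20 in the remote zone) and for Col12a1 (2.37). For Notch3 it was −0.12, close to the subtraction. The reason for the gaps was not tested.

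**Figure D5:**
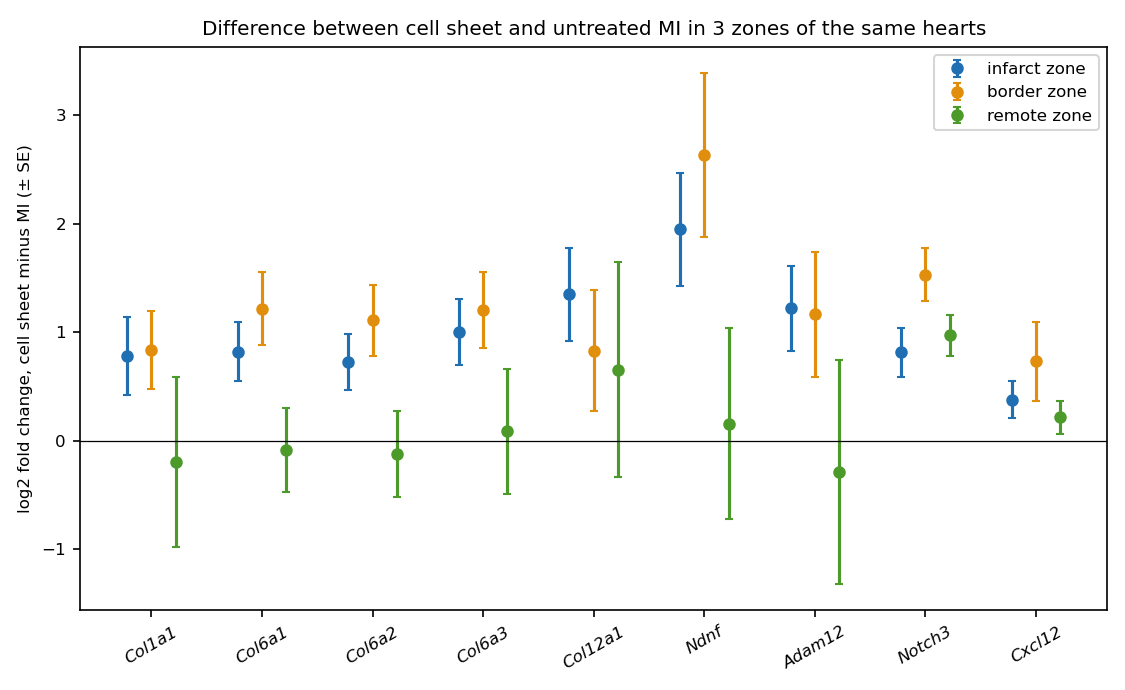
Log2 fold change, cell sheet minus untreated MI, with its SE, of the 9 genes that the study singled out, in the infarct, border and remote zones, each zone fitted alone over 12 libraries. Notch3 lies above 0 in all 3 zones (0.81, 1.53 and 0.97), while the 5 collagen genes run from −0.20 to 0.65 in the remote zone.

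None of the genes with the lowest p-values passed the zone tests, and their values follow as a description. The lowest p-values between infarct and border were those of LOC100910678, a gene known only by its number, with a difference of 1.38 (adjusted p = 0.186), the secreted C1qtnf7 (1.21), the helicase gene Helz (−0.51), the cytochrome Cyp2e1 (−4.93) and Spen (−0.73), a transcriptional corepressor that binds RBPJ. Spen had a log2 fold change of 0.18 in the infarct and 0.89 in the border zone (adjusted p = 0.000861). Between infarct and remote they were those of Cyth1 (−0.84), Ace (0.85), which makes angiotensin II, Mall (0.89), Pex5 (−0.52) and Adgrl4 (0.73), an adhesion receptor of endothelium, all with an adjusted p of 0.0999. Single zone fits gave Ace 0.36 in the infarct, 0.94 in the border and −0.42 in the remote zone.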

How the data were processed

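The authors aligned polyA RNA reads with STAR to the rat assembly mRatBN7.2 and deposited raw read counts per gene, 1 file for each library. The counting program and strand setting are not given in the sources used here, so overlapping genes and near-identical copies are uncertain. From each file, 5 summary lines were dropped, leaving 40319 genes. Groups came from the labels. With edgeR 4.0.16 in R 4.3.3, the 12 infarct libraries were filtered (filterByExpr), scaled (TMM) and tested by quasi-likelihood F test with Benjamini-Hochberg adjustment at 0.05, which left 16196 genes. Zone differences were tested with the animal as a block. Alternatives used DESeq2 1.42.0, limma 3.58.1, other filters, scalings, covariates and samples. The code was tested on simulated data. No pair of libraries of a group was identical (chi-square per degree of freedom 17.0 or more over 30 pairs).

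Genes were named when singled out by the study, or when the groups did not overlap at a mean log2 CPM of at least 1 (the 10 largest each way). Others had the lowest p-values of their list, among 44 lists, or a zone difference among the 5 lowest p-values. Some of those list members were left out of the text, and further members with an unadjusted p under 0.05 were added. Vegfa, Kdr, Hes1, Hey1, Dll4, Acta2, Nppa, Nppb, Clk1, Lig3 and Mia3 were named after their values were seen. The lists were chosen with earlier results of these data known.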

Additional observations from a re-analysis of the deposited data

Results flagged for a closer look

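In 30 of 328 groups of 6 libraries, over 120 named genes and 44 list scores, the highest or the lowest library stood apart from the others by Dixon's criterion on the log2 scale. Chance alone marks about 1 group in 20. Untreated MI replicate 1 accounted for 17 of them.

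That library was the lowest of its group for Col1a1 (3001 CPM), Col6a3 (179 CPM), Col12a1 (71.2 CPM), Notch3 (47.4 CPM), Pmfbp1 (0.52 CPM), Col5a1 (536 CPM), Col16a1 (77.4 CPM), Lum (755 CPM), Hspg2 (523 CPM), Notch2 (47.7 CPM) and Acta2 (93.2 CPM), and the highest for the mitochondrial ribosomal gene Mrpl23 (50.3 CPM). Its mean log2 CPM was also the lowest of its group for the smooth muscle list (5.19), other collagens (3.84), matricellular proteins (6.53), proteoglycans (6.52) and TGF-beta and BMP genes (5.31). Of the other untreated libraries, replicate 3 was low for B and plasma cell markers (−0.34) and replicate 2 was high for chemokines and cytokines (3.15).

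In the cell sheet group, replicate 6 was high for Sftpc (33.9 CPM) and low for Pgf (4.04 CPM), for macrophage markers (6.86) and for proliferation genes (3.33). Replicate 4 was low for Prr16 (2.66 CPM) and immediate early genes (4.99) and high for erythroid markers (6.34). Replicate 1 was high for Pde1b (8.14 CPM) and low for Arl6ip4 (21.8 CPM), and replicate 3 was low for Igsf10 (166 CPM) and high for Rpl37 (6.78 CPM).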

How the results depend on the processing

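The count of genes with an adjusted p under 0.05 in the infarct zone, 0 with edgeR on the 12 libraries, was 85 with DESeq2 on the 12 libraries, 61 with DESeq2 on all 54 and 6 with all 9 groups in 1 edgeR fit (Atp2a1, Clk1, Lig3, Mia3, Myh2 and Mylpf), and 1341 genes had an unadjusted p under 0.05. It stayed at 0 without TMM factors, without a filter, with at least 10 counts in every library, in a fit of the 18 infarct libraries, with limma voom quality weights, with a cardiomyocyte or adipocyte score as a covariate, and without any 1 library, where the number at an unadjusted p under 0.05 ran from 985 (without cell sheet replicate 1) to 2750 (without cell sheet replicate 6). It was also 0 in the fits chosen after seeing the data, without cell sheet replicates 2 and 6 (1601 genes at an unadjusted p under 0.05) and without MI replicate 1 and cell sheet replicate 6 (1863). The cause of these differences between tools was not tested.

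Replicate numbers belong to different rats in the 2 groups and did not pair the libraries, since same-numbered deviations correlated between −0.69 and 0.56 and 1 of 6 libraries correlated best with its own number. With the replicate block, 0 genes had an adjusted p under 0.05 and 802 an unadjusted one.

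For the zone differences, 80 genes passed between infarct and border without the block and 147 with limma voom and the animal as a random effect, and 322 passed between infarct and remote in the latter. Leaving out 1 heart, with both of its zone libraries, gave 0 for infarct against border. It gave 0 to 2011 for infarct against remote (2011 without cell sheet replicate 1). With the cardiomyocyte covariate the sign turned for Hey1 (0.0635), Vegfa (0.18), Kdr (0.24) and Acta2 (−0.22). When 1 library was left out, Kdr ranged from −0.43 to 0.0686 (without MI replicate 1) and Sftpc from −0.11 (without cell sheet replicate 6) to 3.89. Without cell sheet replicates 2 and 6, Atp2a1, a fast muscle calcium pump, had −0.0786 and Tnni2, fast troponin I, −0.13. No other named gene changed sign in any alternative run. Medians of several lists also turned with the cardiomyocyte covariate, and their values stand beside each list in the results.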

Other observations

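Mitochondrially encoded tRNA genes, matched by symbol and chosen after seeing the data, were all lower on the point estimate. Of 22 listed, 15 passed the filter, and all 15 had a log2 fold change below 0, with a median of −1.39. By edgeR, 8 had an unadjusted p under 0.05, beside 3.36% of all genes lower, and 0 an adjusted one (lowest adjusted p 0.472). Their summed level was 983 to 6922 CPM in the cell sheet libraries (median 1133), 1249 to 12480 CPM in the untreated MI libraries (median 4441) and 8188 to 22910 CPM in sham (median 21760), so the groups overlapped. The highest infarcted libraries were MI replicate 1 (12480 CPM) and cell sheet replicate 6 (6922 CPM), which also had the highest cardiomyocyte scores of their groups. Most of the summed level came from 1 gene, Trns1. It was at 836 to 6072 CPM with the cell sheet (median 961) and 1044 to 10770 CPM without it (median 3671). Its log2 fold change was −1.08 (SE 0.68), with no unadjusted p under 0.05. Trnr, which carries arginine and had the lowest p-value of the 15, was at 11.8 to 30.9 CPM with the cell sheet and 18.3 to 87.2 CPM without it (log2 fold change −1.70). The libraries were made from polyA RNA, and the part of RNA selection in these values was not tested.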
